A study of Homo sapiens with 6 samples.

Results

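The muscle myosin and thick filament genes described here were 10 named genes out of 35268 named genes in a table of normalized counts from Rh30 cells. They were chosen by symbol: MYH1, MYH2, MYH3, MYH7 and MYH8 encode heavy chains of sarcomeric myosin, MYL1, MYL4 and MYLPF its light chains, and MYBPC1 and MYBPH proteins of the myosin-binding protein C family. All 10 had a row in the table. Rh30 is an established cell line from a fusion-positive rhabdomyosarcoma, a tumor of cells with skeletal muscle features that carries the PAX3-FOXO1 fusion. YK-4-279 is a small molecule known as an inhibitor of interactions of ETS family transcription factors. Rh30 cells received 1 µM YK-4-279 (3 libraries) or its vehicle DMSO (3 libraries) for 24 hours, and poly(A) mRNA was sequenced. The sources do not say whether the libraries of a group came from separate experiments, so p-values measure the spread between these libraries, which may be technical.

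Reads on named genes numbered 16724650, 20771226 and 24677433 under DMSO and 23230675, 18752655 and 19876724 under YK-4-279. The deposited values, read counts scaled by library, are called normalized counts below. DMSO replicate 1 stood apart. Its log2 values had a mean correlation across genes of 0.989 with those of the other libraries, against at least 0.992 for each of the other 5, and mitochondrial genes took 6.05% of its reads, against 4.99% and 4.93% for the next DMSO libraries. It had the lowest of the 6 normalized counts for 7 of the 8 members that were tested for a change. Without it, 1823 of all 13930 genes tested passed (644 higher and 1179 lower), in place of 475 (176 higher). Fold changes and list medians that moved by over 1.5 times without it are given both ways, except for genes near 0.

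Sarcomeric myosin is the motor of muscle contraction. A pair of heavy chains forms its tail and its motor domains, each heavy chain neck binds an essential and a regulatory light chain, and many such molecules pack into the thick filament, where myosin-binding proteins form regular stripes. Muscle switches isoforms as it develops: embryonic (MYH3) and perinatal (MYH8) heavy chains come first, and slow (MYH7) and fast (MYH2, MYH1) heavy chains dominate mature fibers. Cells of rhabdomyosarcoma express early muscle regulators and differentiate incompletely.

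Of the 10 members, 8 had a mean of at least 10 normalized counts over the 6 libraries and were tested. MYLPF rose with YK-4-279, and the other 7 tested members did not pass the threshold (limma on log2(normalized count + 1), adjusted p under 0.05 over 13930 genes). Over all genes tested, 475 passed, or 3.41%, and 176 were called higher, or 1.26%, so that 1 of 8 members is too small a count to set apart from this background. The log2 fold change was above 0 for all 8 tested members, in the main test and under each alternative setting run, with a median of 0.61. Over all genes tested the median was -0.01 and 48.0% were above 0. For 7 of the 8, every YK-4-279 value lay above every DMSO value, which held for 10.9% of all genes tested; the groups of MYH2 overlapped. Without DMSO replicate 1 the members' median was 0.50, and 7 of 8 still had every YK-4-279 value above every DMSO value, against 17.9% of all genes tested. These genes share libraries and were chosen with earlier results of these data known, so their common direction is a description. In RNA from whole cultures, more cells expressing a gene and more RNA per cell cannot be told apart.

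**Figure D1:**
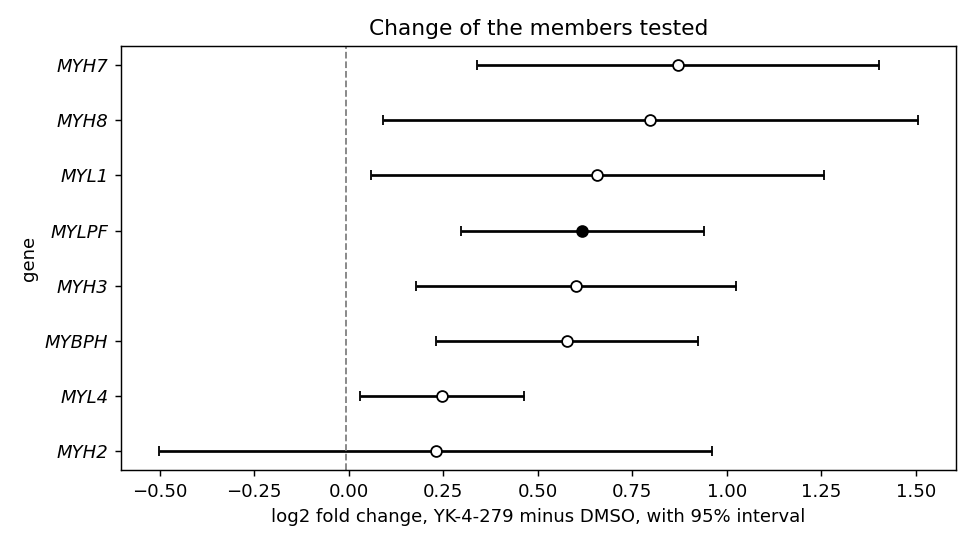
Log2 fold change (YK-4-279 minus DMSO) of the 8 tested members, with 95% intervals from limma over 3 libraries per group. The filled point, MYLPF, passed an adjusted p of 0.05, open points did not, and the dashed line marks the median of all genes tested, -0.01. Only the interval of MYH2 reaches below 0.

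MYH3, the embryonic heavy chain, had the most reads of the heavy chain members. It had 36.6, 48.96 and 39.2 normalized counts in the DMSO libraries, in the order of their numbers, and 73.7, 59.8 and 57.0 with YK-4-279. The groups did not overlap, and the means were 41.6 ± 6.52 and 63.5 ± 8.94 (SD, n = 3 each). The log2 fold change was 0.60 (95% interval 0.18 to 1.02), with a limma adjusted p of 0.116, and was 0.52 without DMSO replicate 1. These values rest on 125 reads in the DMSO group and 198 in the YK-4-279 group.

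MYH7, the heavy chain of slow fibers and of the heart ventricle, had the largest log2 fold change of the 8 tested members. It had 17.7, 19.0 and 21.7 normalized counts in the DMSO libraries and 35.1, 31.5 and 43.0 in the YK-4-279 libraries. The lowest YK-4-279 value thus lay well above the highest DMSO value. The log2 fold change was 0.87 (95% interval 0.34 to 1.40; limma adjusted p = 0.0726), from 59 and 113 reads in the DMSO and YK-4-279 groups. It passed the threshold under a single alternative, in which a per-library fit to GC content and length was subtracted (limma adjusted p = 0.0460, range over the alternatives 0.0460 to 0.290).

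MYH8, the perinatal heavy chain, had 8.83, 12.99 and 15.9 normalized counts in DMSO and 20.6, 18.5 and 28.0 in YK-4-279. The groups did not overlap, but counting error alone was 16.0% of the DMSO total of 39 reads. Its log2 fold change of 0.80 (95% interval 0.09 to 1.504) had a limma adjusted p of 0.212, and was 0.58 without DMSO replicate 1. The fast heavy chain MYH2 ranged from 11.3 to 18.4 normalized counts in DMSO and from 11.95 to 22.01 in YK-4-279, and its groups overlapped. Its log2 fold change was 0.23 (95% interval -0.50 to 0.96; limma adjusted p = 0.760). It was 0.06 without DMSO replicate 1, 0.48 without YK-4-279 replicate 2 and 0.03 under quantile scaling. MYH1, the other fast heavy chain among the members, was below the filter: it had 2, 3 and 6 recovered reads in DMSO and 4, 1 and 7 in YK-4-279, so no difference was detectable at this depth.

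**Figure D2:**
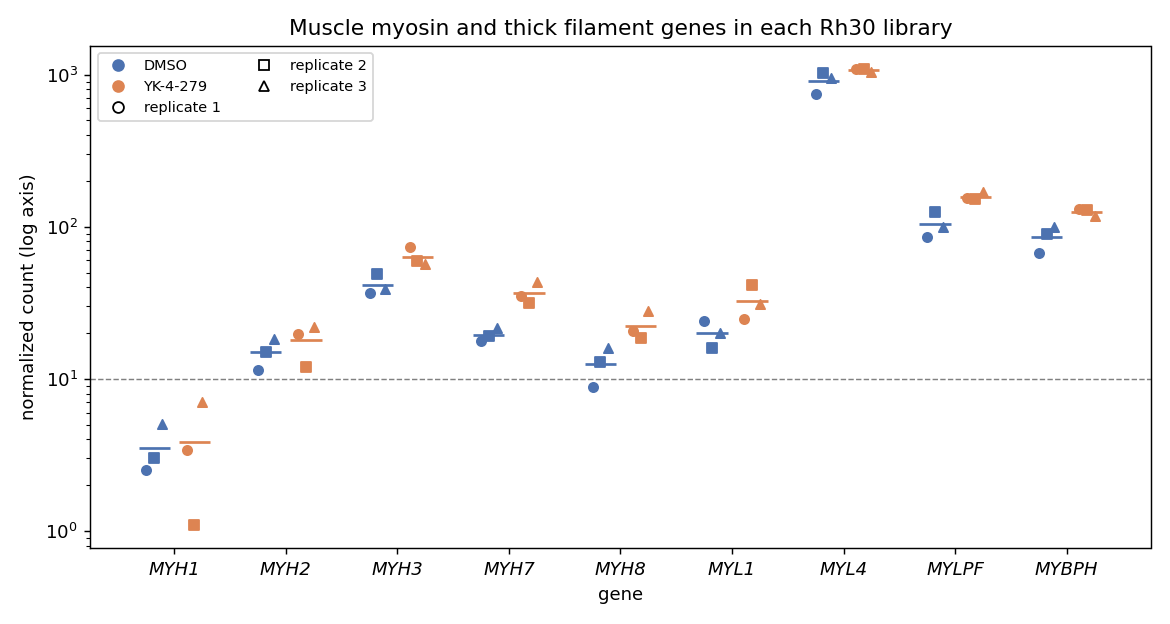
Normalized counts (log axis) of the 9 members with reads, in each of the 6 libraries. Circles, squares and triangles are replicates 1, 2 and 3, horizontal bars are group means, and the dashed line is the filter at a mean of 10. MYL4 stands near 1000, MYLPF and MYBPH near 100, and MYH1 below the filter; MYBPC1 had no reads and is not drawn.

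Heavy chain genes are alike in sequence, which limits their counts. Of all windows of 150 bases in the longest annotated transcript, 3.25% of those of MYH1, 2.01% of those of MYH2 and 0.73% of those of MYH8 also occurred in a transcript of another gene, always another sarcomeric heavy chain. For MYH7 it was 4.19%, shared with MYH6 or MYH16, and for MYH3 it was 0. With windows of 50 bases the shares were 20.8% for MYH1, 17.9% for MYH2, 8.18% for MYH8, 14.6% for MYH7 and 3.93% for MYH3. Reads from such windows could be assigned to either gene or dropped, so these values are uncertain to that extent. MYH6, the cardiac partner of MYH7, had at most 0.857 normalized counts in any library. No window of the light chain genes, MYBPC1 or MYBPH was shared at either length. In GENCODE the long noncoding genes MYHAS and ENSG00000272736 lie antisense to MYH1, MYH2 and MYH8, and ENSG00000258444 lies antisense to MYH7. The sources used here do not say whether counting used strand, so reads of these antisense genes cannot be told apart from those of the heavy chains.

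MYH8, MYH1, MYH2 and MYH3 lie in this order on the minus strand of chromosome 17 (hg38, GENCODE 44), from chr17:10390322-10421950 for MYH8 through chr17:10492307-10518542 for MYH1 and chr17:10521148-10549700 for MYH2 to chr17:10628526-10657309 for MYH3. MYH7 lies apart, at chr14:23412740-23435660 on the minus strand. RefSeq promoters (GRCh38.p14) were held for MYH8, MYH1 and MYH2 among the heavy chains; none was held for MYH3 and MYH7. The 250 bases before each start are shown because these neighbors share sequence, with capitals for the longest run of letters that all 3 windows share, 16 bases:
MYH8, chr17:10421951-10422200, minus strand: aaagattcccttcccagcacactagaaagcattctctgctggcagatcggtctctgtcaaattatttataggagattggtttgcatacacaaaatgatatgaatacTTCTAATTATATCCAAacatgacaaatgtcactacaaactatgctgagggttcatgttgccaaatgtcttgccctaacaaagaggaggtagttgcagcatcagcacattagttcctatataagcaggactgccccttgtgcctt
MYH1, chr17:10518543-10518792, minus strand: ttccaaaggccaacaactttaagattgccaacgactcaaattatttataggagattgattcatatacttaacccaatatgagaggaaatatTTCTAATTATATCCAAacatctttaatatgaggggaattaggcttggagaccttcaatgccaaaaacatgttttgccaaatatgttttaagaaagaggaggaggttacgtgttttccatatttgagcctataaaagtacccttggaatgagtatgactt
MYH2, chr17:10549659-10549908, minus strand: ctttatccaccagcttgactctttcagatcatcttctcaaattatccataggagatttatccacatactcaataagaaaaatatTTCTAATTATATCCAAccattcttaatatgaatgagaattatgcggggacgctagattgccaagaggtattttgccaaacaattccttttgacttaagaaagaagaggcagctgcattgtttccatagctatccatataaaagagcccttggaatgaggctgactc

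The shared run begins 144 bases before the start of MYH8, 159 before that of MYH1 and 166 before that of MYH2. Among the 35116 promoters in the table, 3 held it on either strand, which were those of these genes. MYH1 also shared a run of 22 bases with each of MYH2 and MYH8. MYH1 had 23 reads over the 6 libraries, MYH2 102 and MYH8 108. The windows are short and say nothing of distant elements.

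The 5 heavy chain members together had 61, 99 and 120 reads in the DMSO libraries and 178, 113 and 157 in the YK-4-279 libraries. Summed normalized counts were 76.9, 98.9 and 100.2 in DMSO and 153, 123 and 157 in YK-4-279, so that all YK-4-279 sums lay above all DMSO sums. Other sarcomeric heavy chains are outside this sum. Of these, MYH13 and MYH7B had means of 33.7 and 29.2 normalized counts over the 6 libraries, against 28.0 for MYH7. MYH3 held 45.4% ± 5.49 of the sum in DMSO and 44.4% ± 7.04 in YK-4-279 (SD, n = 3 each; exact two-sided permutation test, p = 0.7). In single libraries its share ran from 36.3% (Wilson 95% interval 29.2% to 44.1%) to 49.5% (39.9% to 59.2%), where the intervals cover counting error only. MYH7 held 21.3% ± 1.91 in DMSO and 25.4% ± 2.19 in YK-4-279, and MYH2 16.1% ± 1.96 and 12.2% ± 2.22. Both differences had an exact permutation p of 0.1, the smallest that 3 against 3 libraries allow, so neither could pass 0.05. The groups were barely apart for MYH7, whose highest DMSO share was 22.95% and lowest YK-4-279 share 23.03%. MYH8 and MYH1 had differences of 1.97 and -1.24 percentage points, each with an exact permutation p of 0.4. Leaving out single libraries, the difference ran from 0.784 to 3.15 for MYH8 (0.972 without DMSO replicate 1), from -2.204 to -0.417 for MYH1 and from -4.09 to 3.09 for MYH3 (0.1002 without DMSO replicate 1).

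**Figure D3:**
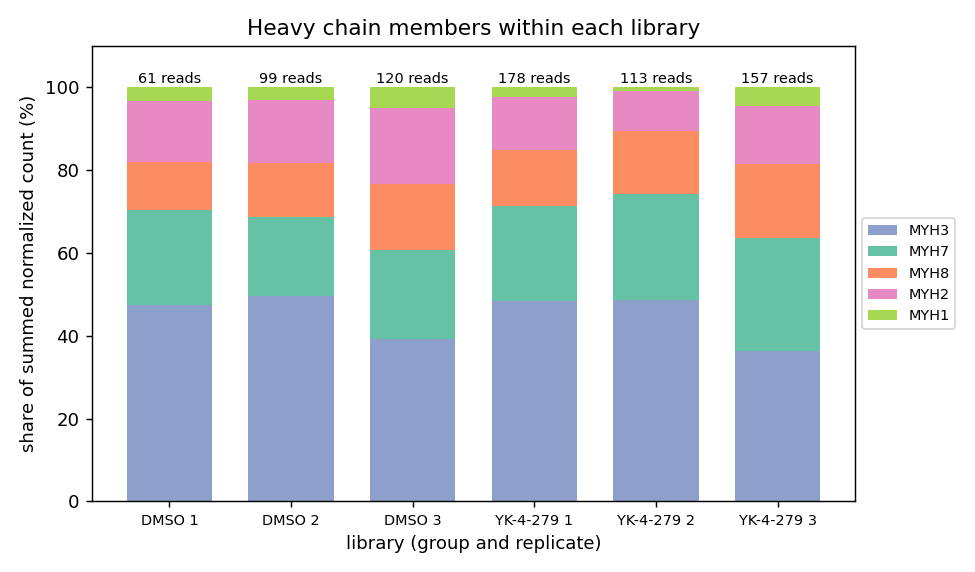
Share of each heavy chain member in the summed normalized counts of the 5 in each library, with the reads behind each bar above it. MYH3 holds between 36.3% and 49.5% in every library, followed in every library by MYH7.

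Of the light chain members, MYL4 dominated. It encodes the essential light chain of embryonic muscle and of the heart atria, and is annotated at chr17:47200446-47223679 on the plus strand. DMSO libraries had 746, 1030.2 and 950.2 normalized counts of it and YK-4-279 libraries 1082, 1093 and 1034. The highest DMSO value and the lowest YK-4-279 value nearly met. The means were 909 ± 146 and 1069.6 ± 31.8 (SD, n = 3 each), and DMSO replicate 1 was the lowest library. The log2 fold change was 0.25 (95% interval 0.03 to 0.46; limma adjusted p = 0.208). It was 0.15 once the GC and length trend was taken out. Without DMSO replicate 1 it was 0.11, and without DMSO replicate 2 it was 0.34 and passed the threshold (limma adjusted p = 0.0489, range over the alternatives 0.0489 to 0.485).

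MYLPF, the regulatory light chain of fast fibers, was the member that passed. It lies at chr16:30370934-30377991 on the plus strand, where GENCODE 44 names it MYL11. It had 85.7, 125 and 100.2 normalized counts in DMSO and 153, 152 and 168 in YK-4-279. The 3 YK-4-279 values were close together and lay above each DMSO value. The means were 104 ± 19.8 and 158 ± 8.87 (SD, n = 3 each). The log2 fold change was 0.62 (95% interval 0.30 to 0.94; limma adjusted p = 0.0392), from 313 and 487 reads. The call held under edgeR's quasi-likelihood test (adjusted p = 0.0382) and DESeq2 (adjusted p = 0.0188) on recovered reads, and without DMSO replicate 1, where the log2 fold change was 0.49 (limma adjusted p = 0.0121). It was lost by eBayes without trend (limma adjusted p = 0.136), without a filter on the mean (0.0516), under quantile scaling (0.0671) and with the replicate number as a block (0.0675). It was also lost without DMSO replicate 3 (limma adjusted p = 0.0927) and without YK-4-279 replicate 1, 2 or 3 (limma adjusted p = 0.173, 0.150 and 0.178), while the log2 fold change stayed between 0.49 and 0.76 under every alternative.

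RefSeq lists a pair of starts for MYLPF. The 250 bases before each are shown because MYLPF was the member that passed the threshold. Capitals mark the E-boxes CAGCTG and CACCTG on either strand, motifs that myogenic factors such as MYOD1 are known to bind:
MYLPF, first start, chr16:30370684-30370933, plus strand: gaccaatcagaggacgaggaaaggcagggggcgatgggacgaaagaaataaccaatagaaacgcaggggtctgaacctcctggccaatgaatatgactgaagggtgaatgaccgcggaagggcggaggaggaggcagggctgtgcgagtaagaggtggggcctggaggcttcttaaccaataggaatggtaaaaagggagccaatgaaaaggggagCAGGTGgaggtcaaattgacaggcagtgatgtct
MYLPF, second start, chr16:30372044-30372293, plus strand: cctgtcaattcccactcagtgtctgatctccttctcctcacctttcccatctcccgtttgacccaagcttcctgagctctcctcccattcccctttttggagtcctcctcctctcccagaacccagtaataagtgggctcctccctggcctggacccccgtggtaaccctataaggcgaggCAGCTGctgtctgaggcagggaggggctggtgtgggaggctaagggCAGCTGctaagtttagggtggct

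The first window held 1 E-box and the second 2. The counts are per gene, so transcripts from these starts cannot be told apart.

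MYL1, the essential light chain of fast fibers, stood below MYL4 per kb in every library. It had 24.0, 16.0 and 20.0 normalized counts in DMSO and 24.8, 41.3 and 31.0 in YK-4-279. The groups nearly met, at 24.0 and 24.8. Its log2 fold change was 0.66 (95% interval 0.06 to 1.26; limma adjusted p = 0.227), from 59 and 98 reads, and was 0.79 without DMSO replicate 1. Within a library, MYL4 was between 25.9 and 60.7 times as high as MYL1 on the scale of normalized count + 1. The log2 ratio of MYL4 to MYL1 was 5.44 ± 0.51 in DMSO and 5.03 ± 0.35 in YK-4-279 (SD, n = 3 each), and the difference of -0.41 was within the spread between libraries (exact two-sided permutation test, p = 0.4). It was -0.68 without DMSO replicate 1 and -0.17 without DMSO replicate 2.

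MYBPH encodes a short relative of myosin-binding protein C that sits in the thick filament. It lies at chr1:203167811-203175826 on the minus strand. Its normalized counts were 66.8, 88.9 and 99.4 in DMSO and 130.2, 129 and 118 in YK-4-279. DMSO replicate 1 was lowest, and all 3 YK-4-279 values lay above the DMSO values. The means were 85.0 ± 16.6 and 126 ± 6.78 (SD, n = 3 each). The log2 fold change was 0.58 (95% interval 0.23 to 0.92; limma adjusted p = 0.0672). It passed once the trend on GC content and length was removed (limma adjusted p = 0.0322, range over the alternatives 0.0322 to 0.281), and without DMSO replicate 1 the log2 fold change was 0.42 (limma adjusted p = 0.0611).

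The MYBPH promoter is shown beside those of MYLPF for the same motifs, with the E-boxes in capitals:
MYBPH, chr1:203175827-203176076, minus strand: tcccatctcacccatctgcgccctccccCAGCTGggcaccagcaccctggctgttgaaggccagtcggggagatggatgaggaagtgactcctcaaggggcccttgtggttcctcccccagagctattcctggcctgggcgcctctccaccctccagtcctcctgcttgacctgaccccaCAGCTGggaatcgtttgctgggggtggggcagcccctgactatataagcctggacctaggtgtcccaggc

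MYBPC1, which encodes the slow form of myosin-binding protein C, had 0 reads in all 6 libraries. With 3 reads as the limit that a count of 0 allows, its level was at most 0.179 CPM in the shallowest library and 0.0242 CPM over all 6, for counting error only. None of the 75 ribosomal protein genes with a mean of at least 10 was at 0 in any library. They were picked by that mean, so this does not show that a gene of low level would be detected. MYBPC2, the fast form, was looked up after its values were seen: it had 689.7, 872 and 825 normalized counts in DMSO and 1004, 958 and 959 in YK-4-279 (log2 fold change 0.30, limma adjusted p = 0.0802). MYBPC2 passed without DMSO replicate 1, at 0.20 (limma adjusted p = 0.0154), without DMSO replicate 2 (0.0294), with the GC and length trend taken out (0.0112) and under DESeq2 (0.0379). MYBPC3, the cardiac form, was at 0 in all libraries.

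Per kb of the longest annotated transcript, MYL4 was the highest member, at 988 ± 159 normalized counts per kb in DMSO and 1163 ± 34.5 in YK-4-279 (SD, n = 3 each). MYLPF followed at 158 ± 30.1 and 240.3 ± 13.5 per kb, MYBPH at 46.8 ± 9.14 and 69.2 ± 3.73, and MYL1 at 19.1 ± 3.80 and 30.9 ± 7.92. All heavy chain members were lower: MYH3 had 6.89 ± 1.08 and 10.5 ± 1.48 per kb, MYH7 3.23 ± 0.343 and 6.07 ± 0.976, MYH8 2.08 ± 0.586 and 3.70 ± 0.830, and MYH2 2.45 ± 0.578 and 2.94 ± 0.867. The ranges over the 6 libraries overlapped between MYBPH and MYL1, and between each of MYH3, MYH7, MYH8 and MYH2 and its neighbor in this order. They did not overlap between MYL4, MYLPF and MYBPH, between MYL1 and MYH3, or between MYH2 and MYH1. This order depends on the length used: with the mean length of coding transcripts, MYH2 went from 2.698 to 5.38 per kb over the 6 libraries, above MYH7 at 4.65 and MYH8 at 2.89, and MYL4 went from 1075 to 1335. Transcripts of the light chain members were held on either length at levels above those of any sarcomeric heavy chain member. Among all genes tested with a length, the mean level of MYL4 per kb stood at percentile 93.1, that of MYLPF at 59.1 and that of MYH3 at 8.61.

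**Figure D4:**
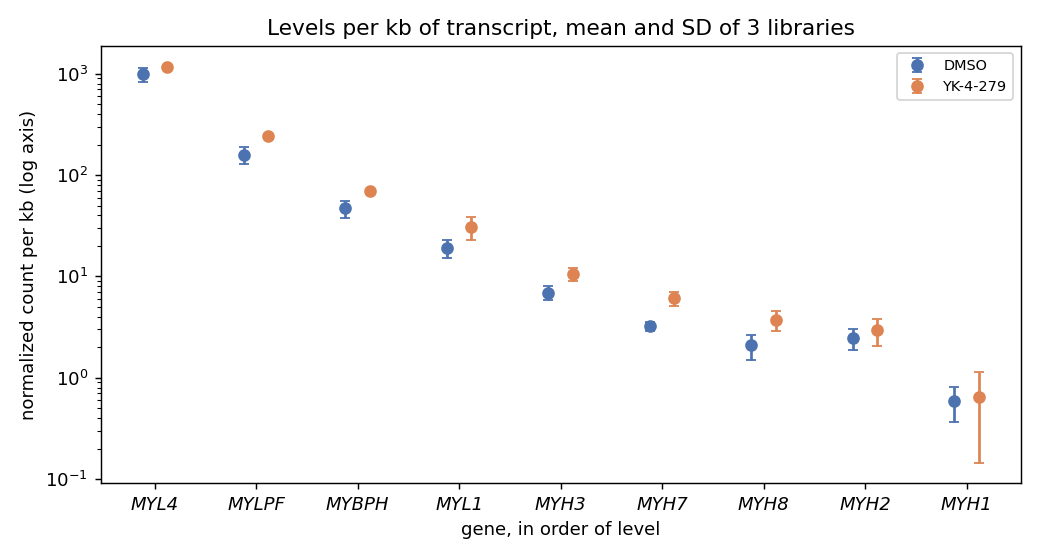
Normalized count per kb of the longest annotated transcript (log axis) of the 9 members with reads, in order of level, as mean and SD of 3 libraries per group. Levels fall from MYL4, near 1000 per kb, to MYH1, under 1 per kb.

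Promoters were found in the RefSeq table for 7 of the 10 members, with 9 starts in all; MYH3, MYH7 and MYL4 had none. Windows from 250 bases before to 50 after each start were searched on both strands. The E-box CAGCTG was in 4 of the 9 windows (MYBPH, MYBPC1, MYH2 and the second start of MYLPF), against 17.9% of all 35116 promoters, and CACCTG was in 2 (both starts of MYLPF), against 20.6%. CATTCC, the MCAT box known to bind TEAD factors, was in 5 windows, against 14.0%, and the TATA box TATAAA in 5, against 11.5%. The MEF2 box was in 1, a start of MYL1, against 0.572%. The ETS core CCGGAAG was in none, against 10.3%, which says only that these letters are not in these windows. A match of letters is not a binding site.

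Genes that work with these members were examined as lists. Of 5 other sarcomeric heavy chains 3 were tested and none was called, with a median log2 fold change of 0.46. MYH13, the superfast heavy chain of eye muscles, had the highest mean of these, with 28.0 ± 6.86 normalized counts in DMSO and 39.3 ± 13.04 in YK-4-279 (SD, n = 3 each), and its groups overlapped. Its log2 fold change was the list's median and was 0.20 without YK-4-279 replicate 2, 0.29 without DMSO replicate 3 and 0.30 under quantile scaling. It shares windows of 50 bases with MYH1, MYH2, MYH3 and MYH8. Of 5 other sarcomeric light chains 3 were tested and none was called (median 0.35). MYL10, the highest, had 22.7, 45.97 and 40.1 normalized counts in DMSO and 44.6, 43.5 and 46.02 in YK-4-279, so its groups overlapped. Its log2 fold change was the list's median, and without DMSO replicate 1, the low library, it was 0.06. It was 0.55 without DMSO replicate 2 and 0.19 under quantile scaling.

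Among 12 other thick filament and M-band proteins, 10 were tested and 1 was called. Their median log2 fold change was 0.18, and 0.06 without DMSO replicate 1, where 3 were called (TTN and MYBPC2 higher, OBSL1 lower). Among all 13930 genes, 1823 were called without that library, 644 higher and 1179 lower. TTN, the giant protein titin that spans from Z-disc to M-band and scaffolds the thick filament, rose from 2103, 1882 and 2147 normalized counts in DMSO to 2631, 2556 and 2674 in YK-4-279, a log2 fold change of 0.36 (95% interval 0.22 to 0.50; limma adjusted p = 0.0109). Its groups were well apart. After removal of the trend on GC content and length its log2 fold change was 0.09 and the call was lost (limma adjusted p = 0.227). How well that trend holds at TTN's transcript length of 109 kb was not tested. The call was also lost by eBayes without trend (0.113) and without YK-4-279 replicate 1, 2 or 3 (limma adjusted p = 0.108, 0.0821 and 0.0928). OBSL1, a relative of the M-band protein obscurin with the highest mean of the list, had 3049 ± 381 and 2936 ± 99.3 normalized counts (log2 fold change -0.05, limma adjusted p = 0.798). It passed without DMSO replicate 1, at -0.15 (limma adjusted p = 0.0110), and with the trend on GC content and length removed, at -0.13 (0.0382).

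None of 12 nonmuscle and smooth muscle myosin II genes was called among 12 tested by limma. Their median log2 fold change was 0.02, and -0.05 without DMSO replicate 1, where 2 were called lower. Among all 13930 genes, 1179 were called lower without that library. MYH9, a nonmuscle heavy chain and the highest of them, had 15467 ± 1264 and 15471 ± 626 normalized counts in DMSO and YK-4-279 (log2 fold change 0.00, limma adjusted p = 0.990). Per kb, MYH9 stood at 2048 normalized counts over the 6 libraries, against 8.71 for MYH3. The difference between lists was not tested.

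Of 11 genes of myosin folding and turnover, 10 were tested and none was called, with 9 of 10 above 0 and a median log2 fold change of 0.12. Leaving out DMSO replicate 1, 2 of them were called higher, beside 644 of all 13930 genes. HSP90AA1, the chaperone that folds myosin motors with UNC45 proteins, was the highest, at 42047 ± 3679 and 42125 ± 1855 normalized counts. Of 7 fast fiber partners 5 were tested and none was called (median 0.38, and 0.19 without DMSO replicate 1). ATP2A1, the fast calcium pump, had 871 ± 36.5 normalized counts in DMSO and 758 ± 47.5 in YK-4-279, so it differed in sign from the other 4 tested (log2 fold change -0.20, limma adjusted p = 0.174). It passed the threshold without DMSO replicate 1, at -0.23 (limma adjusted p = 0.0103), and with the trend on GC content and length removed, at -0.28 (0.00847). Of 8 slow fiber partners all 8 were tested and none was called (median 0.13, and 0.03 without DMSO replicate 1, where 1 was called higher). Among all 13930 genes, 644 were called higher without that library. TNNI1, the slow troponin I, was the highest, at 12837 ± 1383 and 14539 ± 467 normalized counts (log2 fold change 0.18, limma adjusted p = 0.188). It was 0.10 without DMSO replicate 1 (limma adjusted p = 0.102), 0.12 once the GC and length trend was taken out (0.111) and 0.26 without DMSO replicate 2, where it passed (0.0453).

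**Figure D5:**
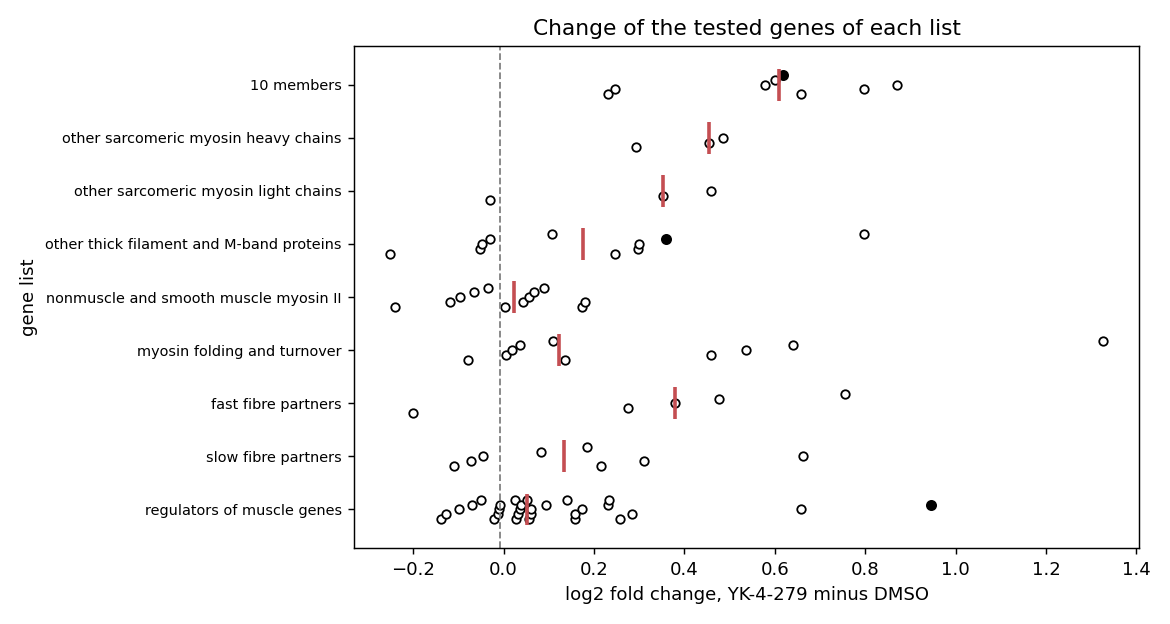
Log2 fold change (YK-4-279 minus DMSO) of the tested genes of each list, 1 point per gene, filled where limma's adjusted p was under 0.05. Red bars are list medians and the dashed line is the median of all genes tested; the members have a median of 0.61, and the nonmuscle and smooth muscle myosin II genes 0.02.

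Of 35 regulators of muscle genes 34 had a row, 29 were tested, and 1 was called, and the median log2 fold change was 0.05. Without DMSO replicate 1 the median was 0.06 and 7 were called, all higher, beside 644 of all 13930 genes called higher. MYOD1, the myogenic factor with the highest mean, had 37118 ± 2368 normalized counts in DMSO and 36868 ± 1156 in YK-4-279 (log2 fold change -0.01, limma adjusted p = 0.963). It was -0.12 once the GC and length trend was taken out (limma adjusted p = 0.138). ID2, which is known to bind E proteins and keep myogenic factors from DNA, rose from 232, 209.8 and 214 normalized counts in DMSO to 416, 444 and 404 in YK-4-279. Its groups were far apart, with a log2 fold change of 0.94 (95% interval 0.74 to 1.15; limma adjusted p = 2.8e-04).

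Marker lists were used to check the label of the cells. All 8 rhabdomyosarcoma markers were tested and none was called. MYOD1 was the most abundant, and the summed level ran from 80069 to 91698 normalized counts over the libraries. Their median log2 fold change was 0.03 (0.01 without DMSO replicate 1, where 2 were called lower). Among all 13930 genes, 1179 were called lower without that library. Immune markers summed to at most 1.999 normalized counts in any library, with LYZ the most abundant and CD68 at 0; none was tested. Epithelial markers (median log2 fold change 0.07 of 2 tested, 0.11 without DMSO replicate 1) summed to 80.4 to 131, with EPCAM the most abundant and KRT5 at 0, and endothelial markers (0.13 of 5 tested) to 120.2 to 148, with TIE1 the most abundant. Smooth muscle markers (0.07 of 3 tested, -0.05 without DMSO replicate 1) summed to 1661 to 1805, of which SMTN, also expressed outside smooth muscle, made up most. Cardiac muscle markers (0.25 of 3 tested) summed to 1066 to 1287, led by NKX2-5, with 953 ± 77.99 normalized counts in DMSO and 772 ± 31.4 in YK-4-279 (log2 fold change -0.30, limma adjusted p = 0.0539). NKX2-5 passed among genes with a mean of at least 100 (limma adjusted p = 0.0489) and under DESeq2 (adjusted p = 0.0354). It also passed with the trend on GC content and length removed, at -0.42 (limma adjusted p = 2.8e-04), and without DMSO replicate 1, at -0.36 (limma adjusted p = 2.8e-05). The other cardiac markers tested, looked up after their values were seen, were above 0. NPPB had 13.9, 50.96 and 48.4 normalized counts in DMSO and 69.4, 73.9 and 70.04 in YK-4-279, a log2 fold change of 1.098 (limma adjusted p = 0.123) that was 0.51 without DMSO replicate 1. It passed with the GC and length trend taken out (0.0411) and without DMSO replicate 2 (0.0317). RYR2 overlapped between groups (log2 fold change 0.25, limma adjusted p = 0.293). Its log2 fold change was 0.161 without DMSO replicate 2 and 0.156 without YK-4-279 replicate 3. The cardiac markers NPPA, TNNI3 and MYH6 were below the filter, at means of 8.51, 3.75 and 0.143 normalized counts over the 6 libraries.

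Fibroblast markers, led by COL3A1, summed to 2681, 2831 and 2731 in DMSO and 3234, 3213 and 3059 in YK-4-279; all 4 tested had log2 fold changes above 0 (median 0.25) and 1 was called, COL1A1, at 0.34 (limma adjusted p = 0.0375). Without DMSO replicate 1, 2 were called, beside 1823 of all 13930 genes, and COL1A1 was at 0.28 (limma adjusted p = 0.00161). Its call was lost by eBayes without trend (0.145), with the replicate number as a block (0.0812), without DMSO replicate 3 (0.0927) and without YK-4-279 replicate 1, 2 or 3 (0.213, 0.190 and 0.127). These higher sums moved in the same direction as the members, and their part in the result was not tested. Levels within the list were uneven. COL1A2 and DCN were below the filter, at means of 9.32 and 0.673 normalized counts over the 6 libraries, and LUM had a mean of 20.8.

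The mean log2 value of the 8 tested members was 5.39, 5.67 and 5.72 in the DMSO libraries and 6.16, 6.09 and 6.25 in YK-4-279 replicates 1, 2 and 3. The genes outside the members whose log2 values followed it most closely over the 6 libraries, out of 10696 with a mean of at least 100, were ZSCAN20, ZFHX3, BRD2, FRAT2 and KCNQ1OT1, with Pearson correlations of 0.999, 0.993, 0.992, 0.991 and 0.989. They were picked as the highest among many, the libraries share the treatment contrast, and the values are given as a description. KCNQ1OT1, a long noncoding RNA of an imprinted locus, rose from a mean of 2177 ± 324 normalized counts to 3269 ± 289 (SD, n = 3 each; log2 fold change 0.59, limma adjusted p = 0.00741). ZSCAN20, a zinc finger gene, rose from 560.3 ± 48.6 to 732 ± 26.2 (log2 fold change 0.39, limma adjusted p = 0.0236). The other 3 did not pass, with log2 fold changes of 0.13 for ZFHX3, 0.14 for BRD2 and 0.23 for FRAT2. Once the GC and length trend was taken out these were 0.09, 0.09 and 0.14. The calls of KCNQ1OT1 and ZSCAN20 were lost by eBayes without trend (limma adjusted p = 0.129 and 0.123), without YK-4-279 replicate 1 (limma adjusted p = 0.0912 and 0.144) and without YK-4-279 replicate 3 (0.0639 and 0.144), and that of ZSCAN20 also without YK-4-279 replicate 2 (0.111) and with the replicate number as a block (0.0586). KCNQ1OT1 had a log2 fold change of 0.35 once the GC and length trend was taken out. How well that trend holds at its transcript length of 91.7 kb was not tested. BRD2 passed without DMSO replicate 1, at 0.12 (limma adjusted p = 0.0295).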

How the data were processed

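mRNA was sequenced from 6 Rh30 libraries. The authors trimmed reads with BBDuk, used STAR (2.7.9a) for alignment to hg38 and for counting, and tested with DESeq2 (1.44.0 in the submitters' processing notes). What they deposited is a normalized signal, read counts scaled by library. Floors and Wilson intervals cover counting error only. Dividing by the smallest value above 0 in a library gave whole reads for 100% of its values (tolerance 0.01). One row without a name, with at most 6 reads per library, was left out.

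Differences were tested with limma 3.58.1 (R 4.3.3; lmFit, eBayes with trend), two-sided, on log2(normalized count + 1) for 13930 genes with a mean of at least 10, Benjamini-Hochberg adjusted over all of them; such fold changes understate those of genes with few reads. Shares and ratios were tested by exact permutation (SciPy 1.17.1). The code was tested on simulated counts. Named genes were the members; from each list the highest mean and up to 3 called genes with the largest change; of each marker list the most abundant gene; and the 5 genes most correlated with the members. COL1A1, MYBPC2, NPPB and RYR2 were looked up after values were seen. Members and lists were chosen with earlier results of these data known. Alternatives were pseudocounts 0.5 and 10, no filter or a mean of at least 100, scaling by TMM or quantiles, eBayes with no trend, blocking on replicate, edgeR 4.0.16 and DESeq2 1.42.0 on recovered reads, removal of trends on GC content and length (loess span 0.3), and leaving out each library; list medians without DMSO replicate 1 were added after seeing the data. Levels per kb used the longest transcript, or the mean length of coding transcripts as an alternative. Lengths and positions came from GENCODE 44, and 94.4% of named rows matched. The planned protein identity between members was not run, for want of a protein table.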

Additional observations from a re-analysis of the deposited data

How the results depend on the processing

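The number of genes called, 475 (37.1% of them higher), became 277 under quantile scaling (47.7% higher), 33 by eBayes without trend (90.9% higher), 180 with the replicate number as a block (43.9% higher), 1817 with the trend on GC content and length removed (26.4% higher), and 19 to 1823 when single libraries were left out: 19, 23 or 46 without YK-4-279 replicate 1, 2 or 3 (78.9%, 69.6% and 60.9% higher), 242 without DMSO replicate 3 and 1823 without DMSO replicate 1. Counts under the other settings lay within 1.5 times the main one. Of the members, 1 was called; 0 were without a filter on the mean, under quantile scaling, by eBayes without trend or with the replicate block, 3 with the trend on GC content and length removed, and 0 to 2 when single libraries were left out. No scaling moved the median of all genes by more than 0.1.

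Same-numbered libraries of the 2 groups did not deviate together (correlations -0.0985, -0.0269 and -0.0267), so the numbers were not taken as pairs. With the block, MYLPF had a log2 fold change of 0.62 (limma adjusted p = 0.0675), and ZSCAN20 also did not pass (0.0586).

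MYLPF did not pass without a filter on the mean (log2 fold change 0.62, adjusted p = 0.0516), under quantile scaling (0.55, adjusted p = 0.0671) or by eBayes without trend (0.62, adjusted p = 0.136), and ran from 0.49 to 0.76 when single libraries were left out. With the trend on GC content and length removed, MYH7 (0.80) and MYBPH (0.48) passed. MYL4 ran from 0.11 to 0.34 without single libraries. The causes were not tested. MYH1 and MYBPC1 had no fold change to compare. The shares and the ratio of MYL4 to MYL1 moved by less than the spread between libraries under each alternative, though the difference of the MYH3 share ran from -4.09 to 3.09 percentage points without single libraries.

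Of 336 fold changes of other named genes under alternatives, 18 turned sign, all of genes near 0: OBSL1 was 0.0103 under quantile scaling, MYH9 -0.0705 with the GC and length trend removed, MYOD1 0.00713 under TMM scaling, 0.0109 under quantile scaling, 0.00828 by edgeR and 0.00428 by DESeq2, and SMTN 0.00868 under quantile scaling. Without single libraries OBSL1 ran from -0.154 to 0.0198, MYH9 from -0.0652 to 0.0493, HSP90AA1 from -0.0424 to 0.0753, MYOD1 from -0.0597 to 0.0311 and SMTN from -0.0562 to 0.00462. Without DMSO replicate 1, an alternative for lists chosen after seeing the data, the median log2 fold change went from 0.35 to 0.0563 for other light chains, from 0.18 to 0.0596 for other thick filament proteins, from 0.02 to -0.0536 for nonmuscle and smooth muscle myosin II, from 0.38 to 0.186 for fast and from 0.13 to 0.0271 for slow fiber partners, from 0.03 to 0.0110 for rhabdomyosarcoma, from 0.07 to -0.0496 for smooth muscle and from 0.07 to 0.114 for epithelial markers. Depth limits the heavy chains and MYL1 most: counting error was 5.65% of the DMSO total for MYLPF, 13.02% for MYH7 and MYL1 and 30.2% for MYH1.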
